A study of Mus musculus with 60 samples.

Results

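DiD is a lipophilic dye that sits in the cell membrane and is shared out between daughter cells at each division, so cells that keep it are taken to have divided little. Of 32 DiD+ tumor cells recovered from mouse bone, 19 held transcripts of several genes of the division machinery and are called cycling here, and 13 held fewer and are called non-cycling. The cells were selected on measured values: a cell was cycling when at least 3 of the 5 genes Mki67, Top2a, Cdk1, Birc5 and Ccnb2 had at least 10 counts in it. The whole series holds 60 cells, and the other 28 are DiD-, of which 25 were cycling and 3 non-cycling by the same rule.

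The cells were PyMT-Bo1, a mouse mammary tumor line of C57BL6 background that carries luciferase (Luc2), an H2B-mApple fusion and the surface marker Thy1.1, and eGFP was also among the quantified transgenes. Dye-labeled cells (500000) were injected into the heart of wild-type female C57BL6/J mice aged 8 to 10 weeks, and the femurs and tibias of 5 mice were pooled 11 days later. All groups therefore share the line, the host, the time and the recovery by Thy1.1 enrichment and sorting, and DiD+ and DiD- cells were parted by the dye gate. Single cells were sequenced as 1 library per well, and no mouse is named for a cell, so the cells of a pool count together as 1 sample and differences between pools are given without a test.

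In a dividing cell, E2F factors switch on the genes for DNA replication in S phase, among them the MCM helicase that licenses origins and the enzymes that make deoxynucleotides. A second wave of transcription follows before mitosis, in which MYBL2 and FOXM1 act together with the DREAM-complex partners on the genes for cyclin B, kinesins, the kinetochore and the spindle checkpoint. Promoters of this second wave often hold CCAAT boxes, which NF-Y binds, and the cell cycle homology region, while E2F sites are typical of the first. The 5 selecting genes belong to the second wave for the most part. Mki67 encodes the chromosome surface protein Ki-67, Top2a a topoisomerase that untangles sister chromatids, Cdk1 the mitotic kinase, Birc5 survivin and Ccnb2 cyclin B2.

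The promoters of the selecting genes and of Cenpf, Cenpe and Cdc6, which are among the list genes highest in cycling cells, are shown because these genes carry the split and the clearest differences. Each is the 250 bases before the annotated transcript start in RefSeq (GRCm38.p6), written 5′ to 3′ along the gene. Capitals mark CCAAT, the cell cycle homology region words TTTGAA and TTCGAA, and the E2F-type words TTTCCCGC, TTTGGCGC, TTTCGCGC and TTTGCCGC, searched on both strands.
Mki67 (chr7:135716380-135716629, minus strand): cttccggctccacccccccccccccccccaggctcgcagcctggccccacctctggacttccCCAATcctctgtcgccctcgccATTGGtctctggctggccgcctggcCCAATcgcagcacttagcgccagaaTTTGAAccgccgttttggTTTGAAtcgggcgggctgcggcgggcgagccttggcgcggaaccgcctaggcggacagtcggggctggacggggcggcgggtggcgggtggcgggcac
Top2a (chr11:99024190-99024439, minus strand): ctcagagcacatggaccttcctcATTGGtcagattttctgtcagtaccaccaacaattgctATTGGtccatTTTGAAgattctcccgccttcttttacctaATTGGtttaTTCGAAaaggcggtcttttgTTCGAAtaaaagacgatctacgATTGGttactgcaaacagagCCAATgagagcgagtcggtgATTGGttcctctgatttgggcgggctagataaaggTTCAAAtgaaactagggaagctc
Cdk1 (chr10:69352913-69353162, minus strand): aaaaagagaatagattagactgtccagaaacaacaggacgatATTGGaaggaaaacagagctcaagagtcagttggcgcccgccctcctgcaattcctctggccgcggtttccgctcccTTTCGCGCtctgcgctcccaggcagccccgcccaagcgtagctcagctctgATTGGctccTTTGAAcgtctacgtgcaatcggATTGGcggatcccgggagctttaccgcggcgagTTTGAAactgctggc
Birc5 (chr11:117848987-117849236, plus strand): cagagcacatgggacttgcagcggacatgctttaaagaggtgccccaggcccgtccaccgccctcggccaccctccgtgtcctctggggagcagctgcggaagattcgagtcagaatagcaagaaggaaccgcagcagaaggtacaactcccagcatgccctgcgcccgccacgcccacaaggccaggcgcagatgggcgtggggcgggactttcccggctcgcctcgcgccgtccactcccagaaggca
Ccnb2 (chr9:70421555-70421804, minus strand): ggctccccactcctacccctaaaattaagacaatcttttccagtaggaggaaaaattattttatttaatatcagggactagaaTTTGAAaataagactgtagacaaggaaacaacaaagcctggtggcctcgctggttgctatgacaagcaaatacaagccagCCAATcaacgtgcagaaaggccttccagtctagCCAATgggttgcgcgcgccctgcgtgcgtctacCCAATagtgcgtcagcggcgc
Cenpf (chr1:189688087-189688336, minus strand): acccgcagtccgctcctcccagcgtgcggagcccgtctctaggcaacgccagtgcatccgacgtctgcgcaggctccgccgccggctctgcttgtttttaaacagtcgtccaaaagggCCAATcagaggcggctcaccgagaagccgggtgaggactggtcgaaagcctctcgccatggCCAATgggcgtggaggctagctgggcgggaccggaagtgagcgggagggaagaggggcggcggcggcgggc
Cenpe (chr3:135212313-135212562, plus strand): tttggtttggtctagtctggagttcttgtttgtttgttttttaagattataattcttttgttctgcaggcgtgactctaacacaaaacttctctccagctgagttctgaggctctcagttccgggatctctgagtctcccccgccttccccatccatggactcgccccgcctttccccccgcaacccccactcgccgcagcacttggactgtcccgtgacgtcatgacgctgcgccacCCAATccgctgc
Cdc6 (chr11:98907901-98908150, plus strand): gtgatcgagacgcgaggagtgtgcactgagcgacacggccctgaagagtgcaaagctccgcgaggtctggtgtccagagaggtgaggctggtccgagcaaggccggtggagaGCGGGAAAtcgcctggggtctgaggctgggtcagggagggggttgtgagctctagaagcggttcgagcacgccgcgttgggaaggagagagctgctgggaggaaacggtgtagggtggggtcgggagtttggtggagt

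The Mki67 window held 3 CCAAT and 2 TTTGAA words, and the Top2a window held 6 CCAAT, 2 TTTGAA and 2 TTCGAA words. Cdk1 had 3 CCAAT, 2 TTTGAA and 1 TTTCGCGC, and Ccnb2 had 3 CCAAT and 1 TTTGAA. No searched word was found in the Birc5 window. Cenpf and Cenpe, which encode a kinetochore protein and a kinetochore motor, had 2 and 1 CCAAT, and Cdc6, which loads the MCM helicase on origins, had 1 TTTCCCGC on the opposite strand. Over the G2/M phase list (49 genes, without the 5 selecting genes) 42 had a promoter in the table. CCAAT was present in 76.2% of them against 37.5% of all 27025 genes with a promoter, at least 2 CCAAT in 54.8% against 11.5%, and TTTGAA or TTCGAA in 42.9% against 19.6%. The E2F-type words were in 4.76% against 2.16%. Among the 9433 promoter genes with at least 1 CPM, the shares were 40.8% for CCAAT, 15.2% for at least 2 CCAAT, 14.6% for TTTGAA or TTCGAA and 3.98% for the E2F-type words, the last close to that of the list. For the S phase list, 32 of 44 genes (72.7%) had a promoter, too few for the same comparison, which is void. The shares above are therefore not shown to be particular to the G2/M list. TTCGAA reads the same on both strands and was counted once, no other words overlapped in the printed windows, and a match describes letters, not binding.

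On the selecting genes the 32 cells formed a gradient rather than 2 clear sets. None of the 5 genes reached 10 counts in 3 cells, 1 gene did in 5 cells and 2 genes in 5 cells. Among the cycling cells, 4 had 3 genes, 5 had 4 genes and 10 had all 5. The share of DiD+ cells that were cycling was 59.4% (19 of 32, exact binomial 95% interval 40.6 to 76.3%), and in DiD- cells it was 89.3% (25 of 28, 71.8 to 97.7%). These intervals, like all those given here, cover counting error only, because the reads carry no molecular identifiers and cells of a pool are not replicates. All 5 genes were found in 16 of the 28 DiD- cells.

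Ccnb2 separated the pools most sharply, with 443.6 CPM in cycling and 0.279 CPM in non-cycling cells, where CPM is the gene's counts summed over the pool and scaled to the pool's summed mouse gene counts. It had at least 10 counts in 17 of 19 cycling and 1 of 13 non-cycling cells, and that 1 cell (cell 68, by its number in the labels) had 14 counts. Cdk1 was found in the most non-cycling cells, at 422 against 29.98 CPM, with at least 10 counts in 18 of 19 and 8 of 13 cells. Mki67 was at 108 against 3.70 CPM, and all of the non-cycling counts came from cell 76, with 212. Top2a was at 217 against 15.04 CPM and Birc5 at 356 against 3.29 CPM. These values chose the cells and show nothing beyond the choice.

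**Figure D1:**
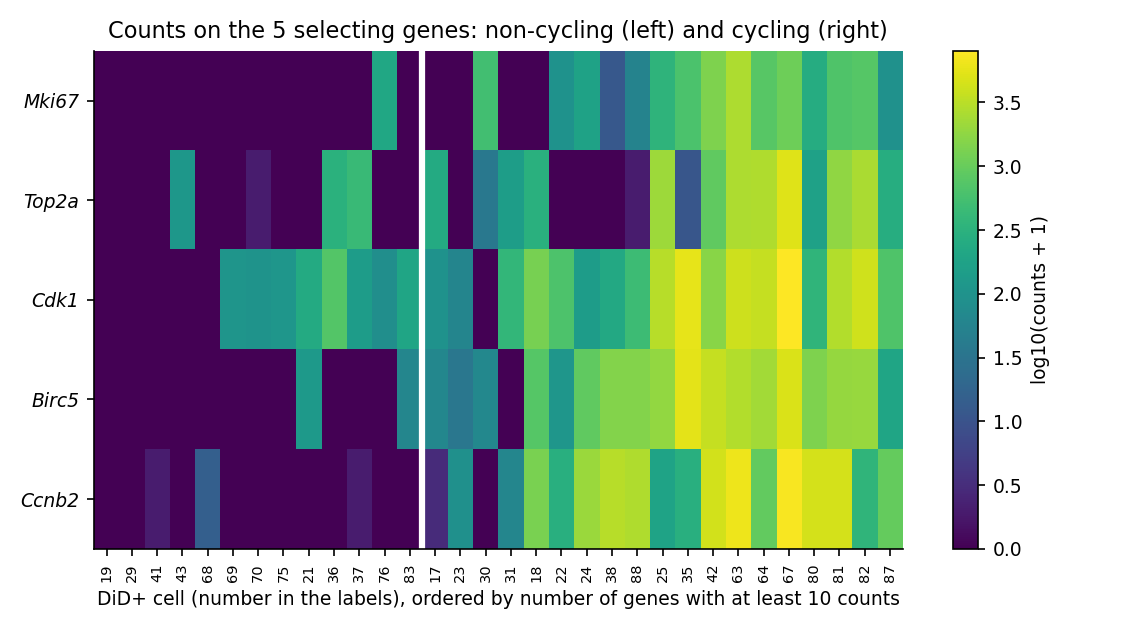
Counts of the 5 selecting genes (rows) in each of the 32 DiD+ cells (columns, by number in the labels), as log10(counts + 1). The white line parts the 13 non-cycling cells on the left from the 19 cycling cells on the right. Cdk1 had at least 10 counts in 8 of the 13 non-cycling cells, and the 10 cells at the right have at least 10 counts on all 5 genes.

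The cells on either side of the limit had overlapping counts. Of the cells with 2 genes, cell 36 had 307 counts on Top2a and 730 on Cdk1, and cell 37 had 438 and 145. Cell 21 had 245 on Cdk1 and 127 on Birc5, cell 76 had 212 on Mki67 and 83 on Cdk1, and cell 83 had 198 on Cdk1 and 62 on Birc5. Of the cells with 3 genes, cell 23 was the lowest, with 58, 34 and 90 counts on Cdk1, Birc5 and Ccnb2, and cell 17 had 247, 98 and 63 on Top2a, Cdk1 and Birc5. The summed level of the 5 genes was 47.6 CPM in cell 23, below the 208 CPM of the non-cycling cell 36. A minimum of 100 counts, or of 4 genes, left 15 cycling cells (46.9%), a minimum of 1 count gave 20 (62.5%) and a minimum of 2 genes gave 24 (75%). The number was also 19 after each cell was thinned to 2200000 counts.

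Total mouse gene counts per cell ran from 2276789 to 7794219 (median 4806432) in cycling and from 3209508 to 5588437 (median 4403467) in non-cycling cells. Detected genes had medians of 8422 and 8138, and the mitochondrial share of counts had medians of 1.07% and 1.76%. Of the 32 cells, 31 had a count on Luc2, eGFP or mApple, and cell 30, which was cycling, had none on any of the 4 transgenes but 9970 counts on Krt8. Wells with markers of host cells lay in both pools. At least 7 of 13 macrophage markers had at least 10 counts in the non-cycling cells 19, 21 and 37 and in the cycling cells 24, 30 and 88, and cells 19, 30 and 37 also had at least 4 of 7 erythroid markers. For a number of lists and genes that moved without these wells, that value, or the counts of the wells, is given too. The tumor line label was checked on keratins: Krt8 was at 2164 CPM in cycling and 1317 CPM in non-cycling cells, Krt18 at 846 and 546 CPM and the mesenchymal Vim at 4287 and 3084 CPM, while Epcam, Krt19 and Krt5 had no counts in either pool, which allows up to 0.0338 and 0.0523 CPM (3 counts in a pool).

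Over all 12664 genes with at least 1 CPM in a pool, 1880 (14.8%) were at least 2-fold higher in cycling DiD+ cells and 1838 (14.5%) at least 2-fold lower. The ratio is log2 of CPM with 1 CPM added to each pool, which pulls genes with few counts toward 0. Its median over all genes was 0.0088 (quartiles -0.56 and 0.58), so the 2 pools were centred alike on this scale. In no gene did the cells of 1 pool all lie above those of the other. For named genes with at least 10 CPM in both pools, the exact Poisson 95% interval of a pool's level reached at most 8.5% to either side, and a range given in brackets after a ratio is that over leaving out 1 cell at a time.

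The S phase list, whose genes the rule did not read, was higher in cycling cells: 43 of its 44 genes were higher, 37 of them at least 2-fold, against 14.8% of all genes. The selecting genes serve the same division cycle. The direction here and in the replication lists below is therefore not independent of the choice of cells. Its median ratio was 1.93 (1.56 to 2.37 with 1 cell left out), or 1.99 with the 5 genes at 0 in a pool set to the limit of 3 counts. The summed S phase level was lowest at 828 CPM, median 3194 CPM and highest at 14795 CPM in cycling cells, and 383, 1270.0 and 5353 CPM in non-cycling cells. The ranges overlapped, and the highest non-cycling cell was cell 36.

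All 17 genes of replication licensing were higher and 13 at least 2-fold, against 14.8% of all genes (median 2.05). Cdc6 had 37.1 CPM in cycling cells and no count in non-cycling ones. This is 710-fold higher against 3 counts in the pool, and Cdc6 had at least 10 counts in 7 of 19 cells. Such folds at 0 counts, here and below, set the other pool at 3 counts and hold counting error alone. Any cell that holds the transcript can give far more reads, as cell 76 did for Mki67 with 212. They are therefore no lower bound on the true fold. Mcm2, a subunit of the helicase, was at 246 against 19.1 CPM (log2 ratio 3.62, 3.37 to 4.41). Mcm3, another subunit, was at 132 against 48.0 CPM (1.44, 1.10 to 2.61), and 60.5% of its non-cycling counts came from cell 36.

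The 7 nucleotide synthesis genes were all higher (median 1.53). Tk1, thymidine kinase, was at 231 against 8.73 CPM (4.57, 4.24 to 5.34), and Rrm2, the regulated subunit of ribonucleotide reductase, at 497 against 22.7 CPM (4.39, 4.06 to 5.16). Rrm2 had at least 10 counts in 17 of 19 cycling and 4 of 13 non-cycling cells. Dut, the dUTPase, was the closest to equal, with 210.0 against 129 CPM (0.70, 0.55 to 0.97). The 20 replication fork genes had a median of 1.35, and all were higher. Of the S phase list, Exo1, an exonuclease of repair, was at least 912-fold higher. Among the S phase genes closest to equal were Casp8ap2 (-0.14, -0.29 to 0.09) and Gins2 (0.33, 0.045 to 0.78).

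The G2/M phase list stood further apart, with 49 of 49 genes higher and 43 at least 2-fold, against 14.8% of all genes (median 3.32, 3.06 to 4.09). The selecting genes belong mostly to the same wave. The direction of this list and its distance from the S phase list are therefore in part built into the choice of cells. Its summed level had a lowest value of 1613, a median of 5120 and a highest of 26446 CPM in cycling cells, and 1301, 1932 and 3107 CPM in non-cycling cells. Of the 19 cycling cells, 14 lay above every non-cycling cell on this sum, and 6 of these did so on the S phase sum too. The other 5 cycling cells (17, 22, 23, 30 and 31) lay within the non-cycling range on both sums, 4 of them with 3 selecting genes and 1 with 4.

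**Figure D2:**
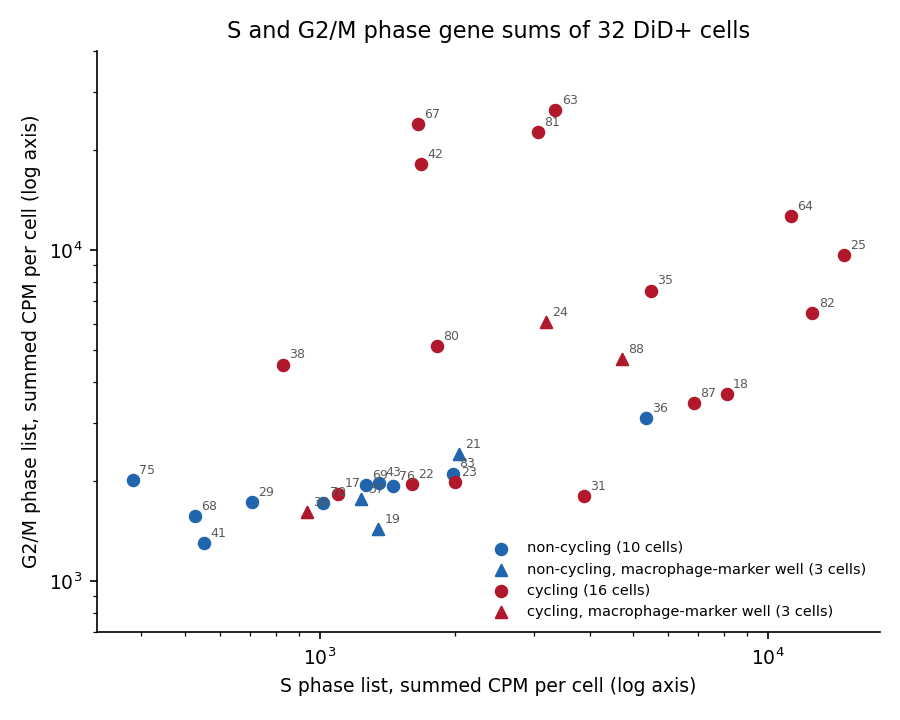
Summed CPM of the S phase list (horizontal, log axis) and of the G2/M phase list (vertical, log axis) in each DiD+ cell, with the cell numbers. Blue marks non-cycling and red cycling cells, and triangles mark wells with at least 7 of 13 macrophage markers. The 8 cycling cells above the non-cycling range in G2/M only include cells 63, 67 and 81, at 26446, 24022 and 22684 CPM, and the cells with the highest S phase sums are 25, 82 and 64.

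Cells near the top of the G2/M sum differed in their S phase sum. Cells 63, 67, 81 and 42 had G2/M sums of 26446, 24022, 22684 and 18134 CPM with S phase sums of 3358, 1658, 3063 and 1686 CPM. Cells 25, 82 and 64 had S phase sums of 14795, 12570.2 and 11257 CPM with G2/M sums of 9663, 6447 and 12669 CPM. The cycling DiD+ cells thus held cells rich in S phase transcripts and cells rich in G2/M transcripts. Cell 36, non-cycling by the rule, had an S phase sum of 5353 CPM, above 13 of the 19 cycling cells, with Ccnb2, Birc5 and Mki67 at 0 counts.

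Among genes outside the selecting 5 that the naming rule admits, the largest ratios belonged to mitotic genes. These share the wave of most selecting genes, so their rank is in part built into the choice of cells too. Cenpf was at 167 CPM in cycling cells and had no count in any non-cycling cell, at least 3195-fold higher, with at least 10 counts in 10 of 19 cells. Bub1b, the checkpoint kinase BubR1, was at least 2539-fold higher and was found at 10 counts in 14 of 19 cells. Cenpe, Nuf2 of the NDC80 complex, Aurka, the centrosomal Aurora kinase, and Cdc25c, the phosphatase that activates CDK1, were likewise at 0 in all non-cycling cells and at least 2202-fold, 2126-fold, 1955-fold and 1556-fold higher. Ccnb1, cyclin B1, was at 664 against 4.18 CPM (log2 ratio 7.004, 6.69 to 9.38), and all of its non-cycling counts came from cell 43. Aurkb, the Aurora kinase of the chromosomal passenger complex, was at 167 against 0.471 CPM (6.84, 6.61 to 7.40), and Nek2, a centrosome kinase, at 115 against 0.314 CPM (6.47, 6.11 to 6.86).

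By role, the 24 kinetochore and spindle checkpoint genes had a median ratio of 4.33, the 20 mitotic kinesin and spindle genes 3.81 and the 18 genes of mitotic kinases, APC/C and cytokinesis 4.53, or 5.40 with the 4 genes at 0 in a pool set to the limit of 3 counts. All 20 kinesin and spindle genes were at least 2-fold higher, against 14.8% of all genes. Kif11, the motor that pushes spindle poles apart, was at 146 against 1.64 CPM (5.80, 5.57 to 7.14), and Ckap2, the lowest of the list, at 154 against 41.2 CPM (1.87). The 16 condensin and chromatin genes were all at least 2-fold higher as well (median 2.44). They included abundant ones: Hmgb2 at 422 against 61.9 CPM (2.75, 2.63 to 3.01), H2afz at 1978 against 536 CPM (1.88, 1.67 to 2.23) and Lmnb1, lamin B1, at 61.4 against 4.17 CPM (3.60, 3.37 to 4.62).

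The regulators were less uniform. Of 14 cyclins and cyclin-dependent kinases 10 were higher and 4 lower (median 0.40, or 0.78 without the macrophage-marker wells). Ccna2, cyclin A2, was at 270 against 4.39 CPM (5.65, 5.49 to 7.70), Ccne2 at 31.5 against 4.497 CPM (2.56, 2.22 to 3.37) and Ccne1 at 38.6 against 7.37 CPM (2.24, 1.99 to 4.36). These are the S phase and G1/S cyclins. Ccnd1, cyclin D1 of early G1, differed far less, at 167 against 107 CPM (0.63, 0.54 to 0.78), with at least 10 counts in 18 of 19 and 12 of 13 cells. Cdk4 (0.11, 0.03 to 0.19) and Cdk6 (0.17, 0.04 to 0.36), the partners of cyclin D, were near equal. Ccng2, an atypical cyclin known from arrested cells, was lower in cycling cells, at 14.96 against 56.0 CPM (-1.84, -1.98 to -1.51), and Cdk7, the kinase that activates other CDKs, at 53.3 against 129 CPM (-1.26, -1.39 to -0.79).

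Among the E2F, MYB and FOXM1 factors 10 of 16 were higher (median 0.80, or 0.37 without the macrophage-marker wells). Foxm1 was at 74.4 against 0.697 CPM (5.47, 5.22 to 5.96) and Mybl2 at 28.8 against 1.38 CPM (3.65, 3.31 to 4.895). Both act on the G2/M genes. The repressor E2f8 was at 34.5 against 3.24 CPM (3.06, 2.83 to 4.75), whereas E2f1 was at 32.2 against 46.7 CPM (-0.52, -0.82 to 0.04) and E2f4 at 57.8 against 63.3 CPM (-0.13, -0.29 to -0.02). Of the CDK inhibitors and pocket proteins 7 of 10 had at least 1 CPM, 4 higher and 3 lower, and the median of 0.81 became -0.04 without the macrophage-marker wells. Cdkn1a, which encodes the inhibitor p21, had at least 10 counts in all 32 cells and was at 567 CPM in cycling and 874 CPM in non-cycling cells (-0.62, -0.89 to -0.34). Its median over cells was 357 CPM in cycling and 450 CPM in non-cycling cells, and its highest values were 1572 and 2501 CPM, so the pools overlapped widely. Cdkn2a, Cdkn2b and Cdkn1c had no counts in either pool.

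**Figure D3:**
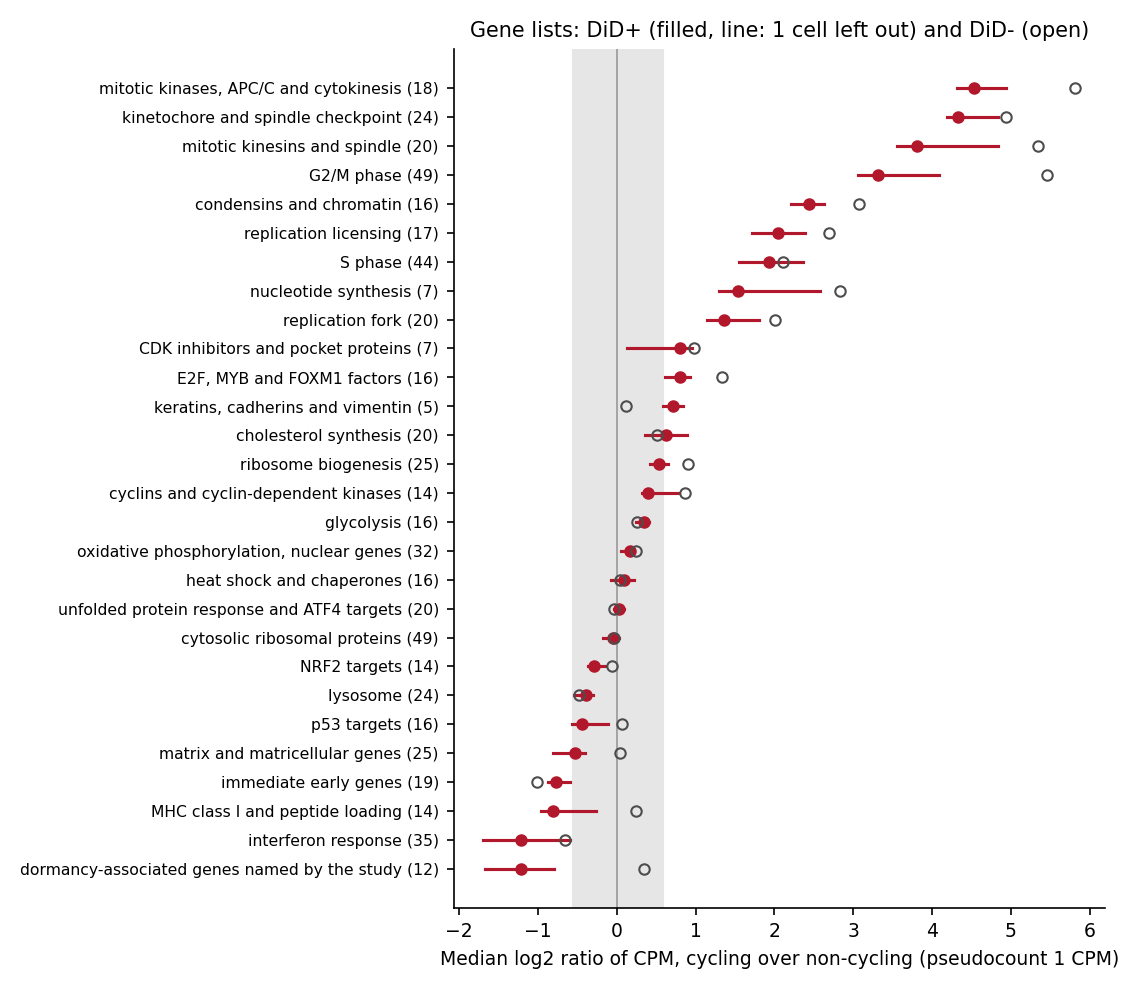
Median log2 ratio of CPM, cycling over non-cycling, for each gene list (number of genes with at least 1 CPM in DiD+ pools in brackets). Filled points are DiD+ cells with the range over leaving out 1 cell at a time as a line, open points are DiD- cells with only 3 non-cycling cells, and the grey band spans the quartiles of all genes in DiD+ cells. Replication and mitosis lists sit far to the right, between 1.35 and 4.53, and the dormancy and interferon lists furthest to the left of those plotted, both at -1.21. Scaled to spike-ins, the median of all genes moves right by 0.78, and the p53, immediate early, MHC, matrix, lysosome and NRF2 lists move above 0.

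Outside the cell cycle lists, Shcbp1 had the highest ratio among the genes that the naming rule admits. Shcbp1, a partner of the cytokinesis motor complex, had 9499 counts against 1 (a ratio of 6143, interval 1102 to 242651) and at least 10 counts in 14 of 19 cells. Cep55, which acts at abscission, and Cdkn3, a phosphatase of CDKs, were at 60.9 and 46.8 CPM in cycling cells and at 0 in all non-cycling ones, at least 1164-fold and 896-fold higher. Sgo2a, the shugoshin that guards centromeric cohesion, Tedc1, a centriole protein, Iqgap3 and Depdc1a were also at 0 in non-cycling cells and were at least 787-fold, 717-fold, 654-fold and 559-fold higher. The predicted gene Gm12856 had 2873 counts against 1 (interval of the ratio 333 to 73408). Pbk, a mitotic kinase, was at 247 against 7.55 CPM (4.86, 4.63 to 6.30) and Cip2a, an inhibitor of the phosphatase PP2A, at 65.7 against 1.60 CPM (4.68, 4.502 to 5.35).

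In the other direction the differences were smaller and more scattered. Vegfa, the angiogenic growth factor (GRCm38, chr17:46016993-46032369), was lower in cycling cells, at 17.3 CPM (16.4 to 18.1, Poisson) against 162 CPM (159 to 165), a log2 ratio of -3.16 that lay between -3.55 and -2.97 whichever cell was left out. It was lowest at 0, median 158 and highest at 367 CPM in the non-cycling cells, and lowest at 0, median 0.737 and highest at 122 CPM in the cycling cells. At least 50 CPM was reached in 10 of 13 non-cycling and 3 of 19 cycling cells, and 2 and 9 cells respectively were at 0. Without the macrophage-marker wells the ratio was -2.90. In DiD- cells Vegfa was at 29.1 CPM in cycling and 105 CPM in the 3 non-cycling cells (-1.82).

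Hist2h2aa2, a histone H2A gene whose reads may be shared with near-identical copies and whose level is therefore uncertain, was at 11.7 against 80.6 CPM (-2.69, -3.00 to -2.50). It had at least 10 counts in 13 of 13 non-cycling and 10 of 19 cycling cells. No non-cycling cell was below 15.4 CPM and no cycling cell was above 46.1 CPM. Kdm6b, a histone H3K27 demethylase, was at 1.34 against 14.5 CPM (-2.73, -3.28 to -2.28), Sh3tc2 at 5.78 against 46.4 CPM (-2.80, -3.99 to -2.47) and Pnpla7, a lysophospholipase, at 4.11 against 31.1 CPM (-2.65, -3.06 to -2.25). Mical3, an actin-oxidizing enzyme, was at 3.62 against 29.7 CPM (-2.73, -4.31 to -1.88). All of its cycling counts lay in the macrophage-marker wells 30 and 88, with 46 and 275, and the non-cycling well 19 held 878. The other 4 of the 10 lowest ratios among the genes that the naming rule admits were interferon-induced genes.

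**Figure D4:**
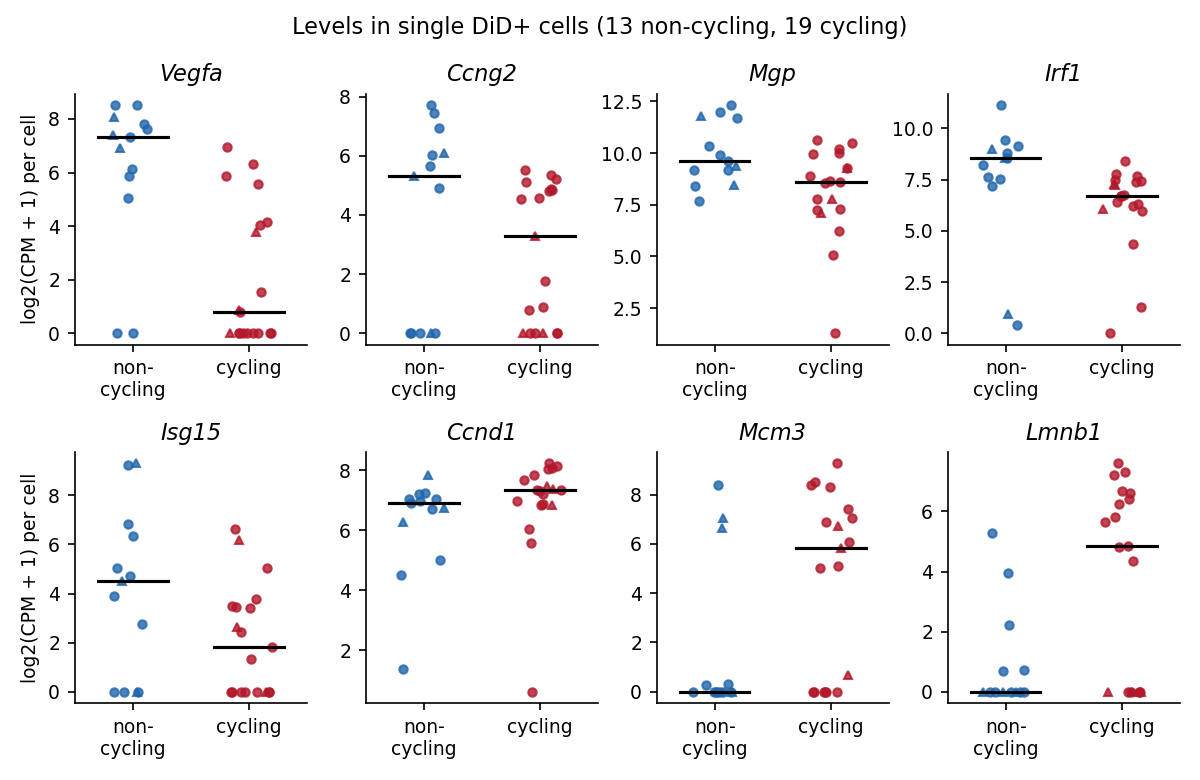
Levels of 8 genes in single DiD+ cells as log2(CPM + 1), in 13 non-cycling (blue) and 19 cycling (red) cells. The bar is the median and triangles are wells with at least 7 of 13 macrophage markers. Vegfa is at or above 50 CPM in 10 non-cycling and 3 cycling cells, Ccnd1 overlaps almost fully, and Mcm3 and Lmnb1 have a median of 0 CPM in non-cycling cells.

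The interferon response list was lower in cycling cells, with 32 of 35 genes lower and 21 at least 2-fold, against 14.5% of all genes (median -1.21). Much of this rested on single cells. Cell 68 had an interferon sum of 17458 CPM, whereas the median was 1405 CPM in non-cycling and 780 CPM in cycling cells and the highest cycling cell (cell 22) reached 3003 CPM. Without cell 68 the median ratio was -0.59, and without cell 68 and the macrophage-marker wells it was -0.12. Against cells with all 5 selecting genes alone the ratio of the list was -2.20.

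By gene, the immunity-related GTPases Tgtp2 (-3.81) and Igtp (-3.58) drew 81.95% and 83.97% of their non-cycling counts from cell 68 and were at -1.45 and -1.05 without it. Tgtp2 has a near-identical relative, so its counts are uncertain. Irgm2, of the same family, was at 8.42 against 59.9 CPM (-2.69, or -1.67 without cell 68). Isg15, a ubiquitin-like protein, was at 14.95 against 112 CPM (-2.83, -3.50 to -2.07), and cell 21, a macrophage-marker well, gave 45.99% of its non-cycling counts (-2.56 without the macrophage-marker wells). Cell 68 held 2233 Isg15 counts, next to 2955 in cell 21, so the value without these wells rests largely on cell 68. The ratio of Irf1, a transcription factor of the interferon response, moved less with any 1 cell, at 113 against 438 CPM (-1.95, -2.12 to -1.46). Irf1 was at or above 50 CPM in 11 of 13 non-cycling cells and 16 of 19 cycling cells, with medians of 376 and 102 CPM. Ifi44 (-4.84) was at 0.10 without cell 68. The MHC class I and peptide loading list was likewise lower (13 of 14 genes, median -0.80, -0.95 to -0.26), and its smallest size came without cell 68. With spike-in scaling its median was 0.02.

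The study named 12 measured genes as associated with dormancy on these same libraries, between DiD+ and DiD- cells, so their direction here is no independent evidence. For some of them, such as Gas6 and Nr2f1, it also cited earlier dormancy reports. For others, such as Mgp and Mme, it also gave qRT-PCR of separately sorted cells. Within DiD+ cells 11 of the 12 were lower in cycling cells and 6 at least 2-fold, against 14.5% of all genes (median -1.21, -1.67 to -0.80, with the smallest size without cell 68). Mgp, matrix Gla protein (GRCm38, chr6:136872435-136875823), was the most abundant and was found at 10 counts in all 13 non-cycling and 18 of 19 cycling cells. Its level was 536 CPM (531 to 541) against 1630.3 CPM (1619.9 to 1641), a log2 ratio of -1.60 (-1.77 to -1.35). In single cells it ran from 204 to 5151 CPM with a median of 776 in the non-cycling pool, and from 1.43 to 1571 CPM with a median of 390 in the cycling pool. Cells 29, 41, 21 and 68 were above every cycling cell.

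The other members were carried by fewer cells. Mme, a membrane metalloprotease, was at 21.96 against 80.8 CPM (-1.83, -2.42 to -1.60) and was found at 10 counts in 8 of 19 and 8 of 13 cells. Dhrs3, which reduces retinal, was at 15.7 against 54.9 CPM (-1.74, -2.24 to -1.16), and Bhlhe41, a transcriptional repressor, at 1.74 against 7.90 CPM (-1.70, -2.22 to -1.36). Postn, the matrix protein periostin, was at 133 against 545 CPM (-2.03, -4.12 to -1.53) but in only 3 cycling and 4 non-cycling cells, and cell 82 held 79.2% of its cycling counts. Ogn, a small proteoglycan, was at 35.2 against 107 CPM (-1.57) and at 0.24 without cell 68, which held 73.9% of the non-cycling counts. The remaining 6 were less than 2-fold apart, and most of them moved with 1 cell. Aldh1a1 was at -0.86 and at -0.06 without cell 43, Irf7 at -0.74 and at 0.45 without cell 68, and Thbs1 at -0.55 and at -0.03 without cell 29. Pdgfrb was at -0.28 and at 0.57 without cell 41, Gas6 at 0.06 and at -0.92 without cell 23, and Nr2f1 at -0.45 (-0.65 to -0.16). Nr2f1, a nuclear receptor, had at least 10 counts in 13 of 19 and 10 of 13 cells.

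The immediate early and p53 target lists were lower in cycling cells by smaller amounts, and their medians turned positive when pools were scaled by spike-ins, which moved the median of all genes by 0.78. They remained below that shift. Of 19 immediate early genes 17 were lower and 6 at least 2-fold, against 14.5% of all genes (median -0.77, 0.05 by spike-ins, or -0.48 without the macrophage-marker wells). Zfp36, which marks cytokine messages for decay, was at 164 against 511 CPM (-1.63, -1.77 to -1.40), Atf3 at 256 against 794 CPM (-1.63, -2.23 to -0.80) and Nr4a1 at 366 against 961 CPM (-1.39, -1.82 to -1.01). The most abundant members differed less: Fos was at -0.58 (-0.68 to -0.16), Junb at -0.48 (-0.68 to -0.34), Jun at -0.01 (-0.10 to 0.08) and Egr1 at 0.32 (0.13 to 0.57). Of 16 p53 targets 12 were lower and 5 at least 2-fold, against the same 14.5% (median -0.45, or 0.35 by spike-ins). Btg2, an antiproliferative factor, was at 102 against 266 CPM (-1.38, -2.30 to -1.07), with 50.5% of its cycling counts in cell 17, and Plk2 at 225 against 587 CPM (-1.38, -1.68 to -1.07). Mdm2 (-1.09) turned to 0.23 without cell 36.

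Of 14 NRF2 targets 10 were lower and 4 at least 2-fold, against 14.5% of all genes (median -0.29, or 0.53 by spike-ins). Among these, Ftl1 and Fth1, the ferritin chains, were at 5119 against 11913 CPM (-1.22, -1.29 to -0.85) and 6897 against 15245 CPM (-1.14, -1.25 to -0.95). Hmox1, heme oxygenase 1, was at 87.2 against 546 CPM (-2.63, -3.10 to -1.81), and cell 19, a well with macrophage and erythroid markers, held 49.1% of its non-cycling counts. Without the macrophage-marker wells it was at -2.002. Without them Ftl1 was at -0.59 and Fth1 at -1.06. Of 24 lysosome genes 20 were lower by mostly small amounts (median -0.39, 0.42 by spike-ins, or -0.56 without the macrophage-marker wells), and the 3 that were at least 2-fold lower are 12.5% of the list, below the 14.5% of all genes. They included the cathepsins Ctsl (-1.07, -1.15 to -0.93) and Ctsd (-1.05, -1.19 to -0.79, or -0.60 without these wells). These genes are abundant in macrophages too. Of 25 matrix genes 18 were lower and 6 at least 2-fold, against 14.5% of all genes (median -0.53, or 0.28 by spike-ins). Col3a1 was at 58.9 against 411 CPM (-2.78, or -0.67 without cell 41), and Fbln2, fibulin 2, was higher, at 582 against 194 CPM (1.58, 1.36 to 2.14). The macrophage-marker wells 24, 30 and 88 held 7398, 5884 and 4369 of the cycling Fbln2 counts. Wells 19, 21 and 37 held 160, 668 and 1613 of the non-cycling ones.

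Of 25 ribosome biogenesis genes 21 were higher, but only 2 at least 2-fold, a smaller share than the 14.8% of all genes (median 0.54, 0.43 to 0.65, or 0.84 without the macrophage-marker wells). They included Npm1, nucleophosmin, at 870.2 against 483 CPM (0.85, 0.58 to 0.98), Nop56 at 328 against 172 CPM (0.93, 0.75 to 1.18) and Ncl at 553 against 369 CPM (0.58, 0.497 to 0.70). The 49 cytosolic ribosomal protein genes were split (median -0.05, or 0.77 by spike-ins, close to the shift of all genes, with 22 higher and 27 lower). Of 20 cholesterol synthesis genes 15 were higher and 7 at least 2-fold, against 14.8% of all genes (median 0.62, 0.35 to 0.89). Among them, Lss was at 20.3 against 1.22 CPM (3.26, 2.84 to 4.38) and Hmgcs1 at 61.6 against 23.3 CPM (1.37, 0.93 to 1.89). All but 1 of the cycling Lss counts lay in cells 18, 23, 31, 42 and 67. The macrophage-marker well 21 held 69 of the non-cycling Lss counts and cell 43 held 1. The summed level of the list had medians of 751 CPM in cycling and 668 CPM in non-cycling cells. The unfolded protein response and ATF4 list was split. Its amino acid synthesis genes Psat1 (1.89, 1.59 to 2.35) and Asns (1.504, 1.18 to 1.90) were higher, while the stress factor Ddit3 was lower (-1.63, -1.90 to -1.41), and the list median was 0.03 (-0.03 to 0.10), or -0.08 without the macrophage-marker wells. Glycolysis (0.35), oxidative phosphorylation (0.17) and heat shock (0.09, or 0.46 without the macrophage-marker wells) lists had medians between 0 and 0.35.

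Cycling cells held more mouse RNA per spike-in. Mouse gene counts per ERCC count, with the same spike-ins added to each well, had a median of 56.0 (31.1 to 178) in the 19 cycling and 36.8 (14.3 to 74.1) in the 13 non-cycling cells, a ratio of 1.52 (1.49 to 1.71 with 1 cell left out). The ranges overlapped, and cells 18, 25, 42, 64, 67, 81 and 87 were above the highest non-cycling cell (cell 75). Cells 68 and 19 were the lowest of all, at 14.3 and 14.6.

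**Figure D5:**
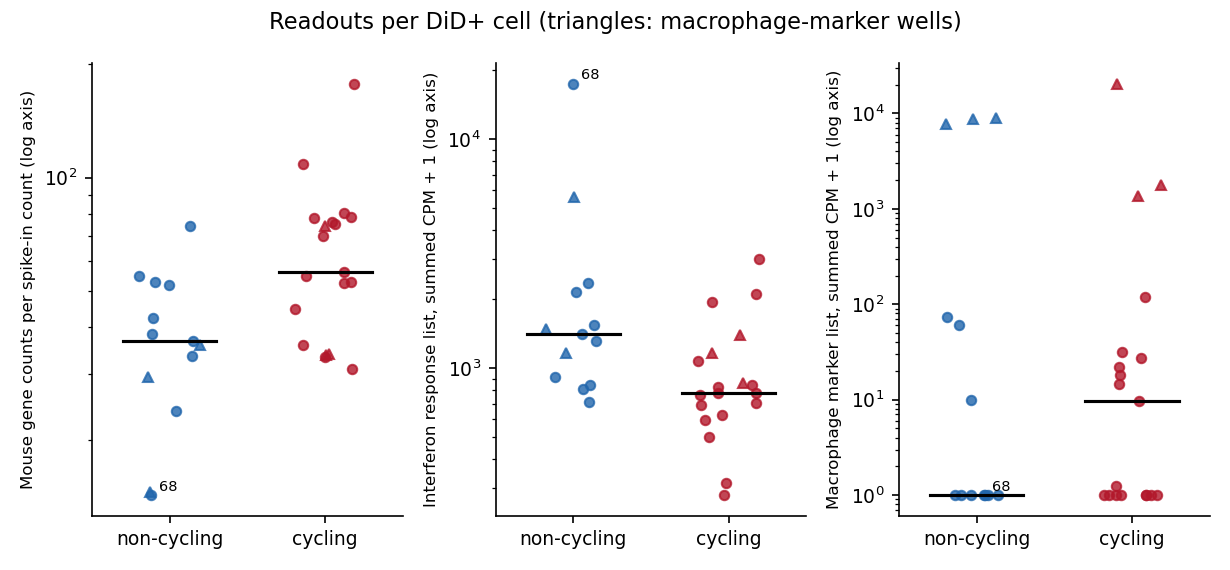
Readouts of each DiD+ cell on log axes: mouse gene counts per spike-in count, summed CPM of the interferon response list plus 1 and summed CPM of 13 macrophage markers plus 1. Bars are medians and triangles are wells with at least 7 of 13 macrophage markers. Cell 68 stands alone at 17458 CPM on the interferon list, and 3 non-cycling and 3 cycling wells hold over 1000 CPM of macrophage markers.

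Markers of macrophages were lower in cycling cells in the sums (11 of 13 genes, 9 at least 2-fold against 14.5% of all genes, median -1.52). Their summed level ran from 0 to 20522 CPM with a median of 8.76 in cycling and from 0 to 8875 CPM with a median of 0 in non-cycling cells. The direction belonged to the 6 wells: without them the median was 0.06. Lyz2 (514 against 64.7 CPM, 2.97) and Csf1r (0.89) were in the opposite direction through cell 24, and without it they were at -2.33 and -2.74. Erythroid genes came from cells 30, 19 and 37, and their list median of 0.84 ranged from -9.05 to 6.14 with 1 cell left out. The part of host RNA in the interferon, lysosome and iron gene values was not tested beyond leaving out these wells. Of 4 genes that the study named as enriched in DiD- cells 2 reached 1 CPM, both higher in cycling cells (median 2.03). Of 11 keratins, cadherins and vimentin 5 did, all higher (median 0.72). Of the other marker lists few genes reached 1 CPM: 1 of 9 for neutrophils, 1 of 8 for T or NK cells, 1 of 7 for endothelial cells, 3 of 6 for B or plasma cells, 3 of 5 for megakaryocytes (median 0.23, or -1.23 without the macrophage-marker wells), 2 of 6 for osteoclasts, 4 of 7 for osteoblasts and 6 of 8 for mesenchymal stromal cells (-1.28, or 0.53 without these wells). All 4 osteoblast genes were lower in cycling cells and 3 at least 2-fold, against 14.5% of all genes. Their median was -1.80 (-2.65 to -0.76), or -2.06 without these wells. With the 2 genes at 0 in a pool set to the limit of 3 counts it was -3.77. The summed osteoblast level had a median of 6.59 and a highest value of 204 CPM in cycling cells. In non-cycling cells these were 12.5 and 818 CPM.

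The transgenes were at like levels in the pools, at 78.9 (77.03 to 80.7, Poisson) against 76.2 CPM (73.99 to 78.5) for Luc2 and 26.4 (25.4 to 27.5) against 23.95 CPM (22.7 to 25.3) for eGFP. The mApple transgene was at 64.5 (62.8 to 66.2) against 49.7 CPM (47.9 to 51.6). The oncogene transcript Pymt was at 10.4 against 1.64 CPM, but it was found in only 5 cycling and 2 non-cycling cells, and cell 88 alone held 691 of its 919 cycling counts.

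The same split of DiD- cells set 25 cells against only 3, so its values carry much of 3 cells. There 30.9% of 11655 genes were at least 2-fold higher and 13.9% at least 2-fold lower. The list medians were 2.10 for S phase, 5.47 for G2/M phase, -1.01 for immediate early genes and -0.65 for the interferon response. Cycling DiD+ cells had a median G2/M sum of 5120 CPM (1613 to 26446) and cycling DiD- cells 7149 CPM (1258 to 21596), and the S phase medians were 3194 and 5421 CPM. Ranges overlapped on both sums, and the difference between the DiD groups was not tested.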

How the data were processed

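Single PyMT-Bo1 cells were the libraries, and the labels gave the dye gate of each cell. The authors aligned reads with STAR to GRCm38/mm10 extended by spike-ins and transgenes. The estimated counts that RSEM gave for 47729 mouse genes, 92 spike-ins and 4 transgenes were deposited as they were, with no scaling. A signal table normalized by the authors with BASiCS served as an alternative scaling only. Estimated counts were rounded to whole numbers (96.6% already were), and totals hold neither spike-ins nor transgenes.

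Members and gene lists were chosen with earlier results of these data known. A cell was cycling with at least 10 counts on at least 3 of 5 genes. Counts were summed over a pool and scaled to CPM, and log2 ratios used a pseudocount of 1 CPM over genes reaching 1 CPM in either pool. A pool is 1 sample, so no test was run and a gene was counted as different past 2-fold. Intervals are exact Poisson or Clopper-Pearson at 95% and hold counting error alone. Where a pool had no count, 3 counts served as its limit, which covers counting error alone and is no bound on the true fold. Summed depth was 88709068 counts in cycling and 57365876 in non-cycling DiD+ cells.

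The genes that could be named were all members of lists of up to 20 genes, the 4 most abundant and the 3 highest and 3 lowest members of longer lists, and the 10 highest and 10 lowest ratios, with and without the cell cycle lists, among genes that reached 10 CPM in either pool and 10 counts in 50% or more of the cells of the higher pool. No doublet caller was run, and the main values leave out no cell. Some genes and details are not reported here.

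Alternatives were mean CPM over cells, BASiCS values, spike-in totals, TMM and DESeq2 factors, pseudocounts of 0.1 and 10 CPM, no minimum or 10 CPM, other marker limits, leaving out wells with host markers, and leaving out each cell. A test on simulated counts used 47729 genes: of 50 genes set to a log2 ratio of 1 and 50 set to -1 between cycling and non-cycling DiD+ cells, 50 and 50 had the right sign, with medians of 1.032 and -0.889. Of 8263 genes left unchanged 74 passed 2-fold. The genes scored had at least 10 CPM, the same scatter between cells and no added zeros. Real genes carried by few cells are therefore not covered by it. Scaling factors came from edgeR 4.0.16 and DESeq2 1.42.0 under R 4.3.3. All other steps ran in Python 3.11.15, with pandas 2.3.3, numpy 2.4.6 and scipy 1.17.1, and matplotlib 3.10.9 drew the plots.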

Additional observations from a re-analysis of the deposited data

Results flagged for a closer look

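The S phase, G2/M phase, macrophage, interferon and dormancy lists were compared for the sign of their median ratio in the DiD groups. Signs were opposite for the macrophage markers and the dormancy-associated genes named by the study. Other lists changed sign too. MHC class I was at -0.80 in DiD+ and 0.25 in DiD- cells, p53 targets at -0.45 and 0.07, and matrix genes at -0.53 and 0.04. Osteoblast markers were at -1.80 and 0.78, and the unfolded protein response list at 0.03 and -0.03. Neutrophil (-1.44 and 1.61) and T or NK markers (2.31 and -1.92) rested on few genes. The differences between the groups were not tested, and the DiD- values rest on 3 non-cycling cells. The macrophage markers were at -1.52 in DiD+ and 1.94 in DiD- cells. Without the wells that hold at least 7 of 13 macrophage markers the DiD+ value was 0.064. In DiD- cells, cell 84 alone had 1687 CPM of these markers with all 13 present, against a median of 0.525 CPM over the 25 cycling cells. The dormancy-associated genes were at -1.21 in DiD+ and 0.34 in DiD- cells, where 5 of 9 were higher and 4 lower and the median of all genes was 0.21.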

How the results depend on the processing

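No paired analysis was possible because the cells carry no replicate number that pairs the pools and no test was run. Scaling by edgeR's TMM or DESeq2's factors moved none of 34 further lists by more than its spread. Depth limits genes near the limit of 0.0523 CPM in the smaller pool, and p-values could not be given with 1 sample a pool.

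Genes at least 2-fold higher numbered 1880, and 5065 by spike-in totals, 577 with a pseudocount of 10 CPM and 1034 with a minimum of 10 CPM. Genes at least 2-fold lower numbered 1838, and 929, 486 and 964 under the same settings. Leaving out 1 cell gave 1832 to 2027 and 1767 to 1963. The S phase median (1.93) was 2.71 by spike-in totals, 1.40 with the larger pseudocount, 3.10 for cells with 4 or more selecting genes against 0 or 1, 2.38 for cells with all 5, and 1.56 (without cell 25) to 2.37 (without cell 36) with 1 cell left out. The G2/M median (3.32) was 4.07, 2.59, 5.35 and 4.07 under these settings and 3.06 to 4.09 with 1 cell left out. The comparison of cells with all 5 selecting genes was added after the data were seen.

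The macrophage list (-1.52) was at 0.064 without the macrophage-marker wells, with the erythroid wells left out or not, at -5.49 for cells with all 5 genes, and at -3.60 (without cell 24) to -1.08 (without cell 21). The interferon list (-1.21) was at -0.58 by spike-in totals, at -2.20 for cells with all 5 genes, at -0.12 without cell 68 and the macrophage-marker wells, a setting also added after the data were seen, and at -1.70 (without cell 22) to -0.59 (without cell 68). The dormancy-associated genes (-1.21) were at -0.41 by spike-in totals, at -0.66 with the larger pseudocount and at -1.67 (without cell 22) to -0.80 (without cell 68). The ratio of mouse counts per spike-in count (1.52) was 1.77 from summed counts and 1.49 to 1.71 with 1 cell left out. The B or plasma cell list (1.02, or 4.29 with genes at 0 in a pool at their limit) was at -1.18 with a minimum of 10 CPM, -1.11 for cells with all 5 genes and -0.33 (without cell 24) to 1.07. The stromal list (-1.28, or -1.56 with genes at their limit) was at 0.45 with that minimum, 0.53 without the macrophage-marker wells and -1.72 to 0.025 (without cell 37). Ogn was at -2.38 to 0.24 (without cell 68), Ifi44 at -5.19 to 0.099 (without cell 68), Mdm2 at -1.37 to 0.23 (without cell 36) and Lyz2 at -2.33 (without cell 24) to 4.08, and Lyz2 was at -3.71 for cells with all 5 genes. The causes of these shifts were not tested, apart from the cells or genes that a setting leaves out.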
